A study of Mus musculus with 4 samples.

Results

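The miR-181 family was examined in mouse MIN6 insulinoma cells and in the exosomes that they release, through the 7 mature strands named mmu-miR-181a-5p, mmu-miR-181a-1-3p, mmu-miR-181a-2-3p, mmu-miR-181b-5p, mmu-miR-181c-5p, mmu-miR-181c-3p and mmu-miR-181d-5p in the files. These are strands that carry the family's name among the 1915 mature mouse miRNAs in the deposited count table. Of the 7, 5 had a count in at least 1 library, and 2, miR-181a-5p and miR-181b-5p, held enough counts to be tested. Both entered the test through their cell counts. MIN6 is an insulin-secreting beta-cell tumour line of the mouse, and both groups came from this single line grown without further treatment in medium with exosome-depleted serum. Each group had 2 libraries of small RNA, and the exosomes had been collected from conditioned medium by filtration and ultracentrifugation. No label says whether the 2 libraries of a group came from separate cultures, so the spread between them may be technical. The comparison asks which miRNAs of the parent cell are found in its exosomes and at what level.

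A miRNA hairpin is cut into a 5p and a 3p strand, of which usually only the guide strand is kept in an Argonaute protein, where bases 2 to 8 (the seed) pair with target mRNAs. The miR-181 family is conserved among vertebrates and is made from paired hairpins at several loci. It is best known in lymphocytes, where it acts in B-cell and T-cell development and tunes T-cell receptor signalling, and it is also expressed in brain and other tissues.

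The sequences are shown because they decide which members can share targets and which reads can be told apart. Capitals mark the seed, and each sequence is printed 5′ to 3′ as the files give it from miRBase v21. The 4 strands of the 5p arm carry the same seed.
miR-181a-5p: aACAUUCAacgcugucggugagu
miR-181b-5p: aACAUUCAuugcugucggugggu
miR-181c-5p: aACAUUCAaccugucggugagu
miR-181d-5p: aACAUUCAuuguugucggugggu
The 3 strands of the 3p arm among the members carry 2 other seeds.
miR-181a-1-3p: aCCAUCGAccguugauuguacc
miR-181c-3p: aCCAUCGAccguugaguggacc
miR-181a-2-3p: aCCGACCGuugacuguaccuug

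Among 1679 mature mouse miRNAs in RefSeq, the seed of the 5p strands occurred in these 4 strands and in 0 others. Counting positions from 1 at the 5′ end, miR-181b-5p differs from miR-181a-5p by A9U, C10U and A21G, all outside the seed. miR-181d-5p differs from miR-181b-5p by C12U alone. miR-181c-5p is 22 bases long and lies 1 edit away from miR-181a-5p, which has 23. Members this alike can lose or gain reads from each other if mismatches were allowed in counting, and the number allowed is not given in the sources used here. In RefSeq the 3p strand of mir-181a-2 starts 3 bases further upstream than in the files, so the seed printed above for it holds for the deposited annotation only, while 5 of the other 6 members were identical in both sources. miR-181b-5p, with 23 bases in the files, had 24 in RefSeq.

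The hairpins lie in 3 pairs. By GENCODE release M21 on GRCm38, the same assembly as the mm10 named in the submitters' processing notes, Mir181a-1 (chr1:137966455-137966541) and Mir181b-1 (chr1:137966639-137966718) lie 97 bases apart on the plus strand, in an exon of the lincRNA A430106G13Rik and an intron of the longer transcript Gm4258. Mir181a-2 (chr2:38852735-38852810) and Mir181b-2 (chr2:38853830-38853918) lie 1019 bases apart on the plus strand, opposite an intron of Nr6a1, which encodes an orphan nuclear receptor. Mir181c (chr8:84178873-84178961) and Mir181d (chr8:84178716-84178787) lie 85 bases apart on the minus strand, in an intron of Nanos3, a germ-cell gene. miR-181a-5p is made from the first and the second pair alike, and so is miR-181b-5p, whereas each 3p strand belongs to 1 hairpin.

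Depth differed widely between the groups. The cell libraries held 2930217 and 2564068 mature counts in all, the exosome libraries 47447 and 31409. A floor of 3 counts, the limit that a count of 0 allows, stands for 1.02 and 1.17 RPM (reads per 1000000 mature counts of the library) in the cells and for 63.2 and 95.5 RPM in the exosomes. Floors and the 95% Wilson intervals given here cover counting error only. All 10 miRNAs of a list of beta-cell miRNAs were counted in both cell libraries, with a summed level of 59321 and 59521 RPM. In the exosomes the list summed to 32626 and 14104 RPM. After TMM scaling between libraries, explained below, edgeR's quasi-likelihood test called 7 of these 10 lower in the exosomes and 0 higher. Among all 438 tested miRNAs it called 29.5% lower and 23.7% higher. With library size alone it called 30 of the 438 lower instead of 129, and the list is given under TMM only. Of the 7, miR-148a-3p had only 1 and 0 counts in the exosomes. Like miR-141-3p (9 and 0, not called), it entered the test through its cell counts.

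miR-181a-5p was the most abundant member in the cells, and its 2 exosome libraries disagreed. The counts of mmu-miR-181a-5p were 319 and 333 in cells, 14 in exosome replicate 1 and 0 in exosome replicate 2. By count it ranked 164 of the 905 miRNAs counted in cell replicate 1 and 144 of the 873 in cell replicate 2. In RPM the cells were at 109 and 130, and exosome replicate 1 at 295 (176 to 495 by the 95% Wilson method). Exosome replicate 2 was below the floor of 95.5, and its Wilson interval, up to 122, includes the level of cell replicate 1. On this scale exosome replicate 1 lay above both cell libraries, which was not so for the normalized CPM used in the test. At the mean RPM of the cells, 5.66 counts would fall on it in exosome replicate 1 and 3.75 in exosome replicate 2.

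miR-181b-5p was the second member in the cells and was counted in every library. The counts of mmu-miR-181b-5p were 155 and 136 in cells against 4 and 3 in exosomes. In RPM it stood at 52.9 and 53.0 in the cells and at 84.3 (32.8 to 217) and 95.5 (32.5 to 281) in exosome replicates 1 and 2, with 95% Wilson intervals in parentheses. On this scale the exosome libraries were the higher ones, and the intervals of both reached below the level of the cells. The mean RPM of the cells corresponds to only 2.51 and 1.66 counts in the exosome libraries, under the floor. Their mean normalized CPM, the scale of the test, corresponds to 7.08 and 3.58 counts, above the floor.

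**Figure D1:**
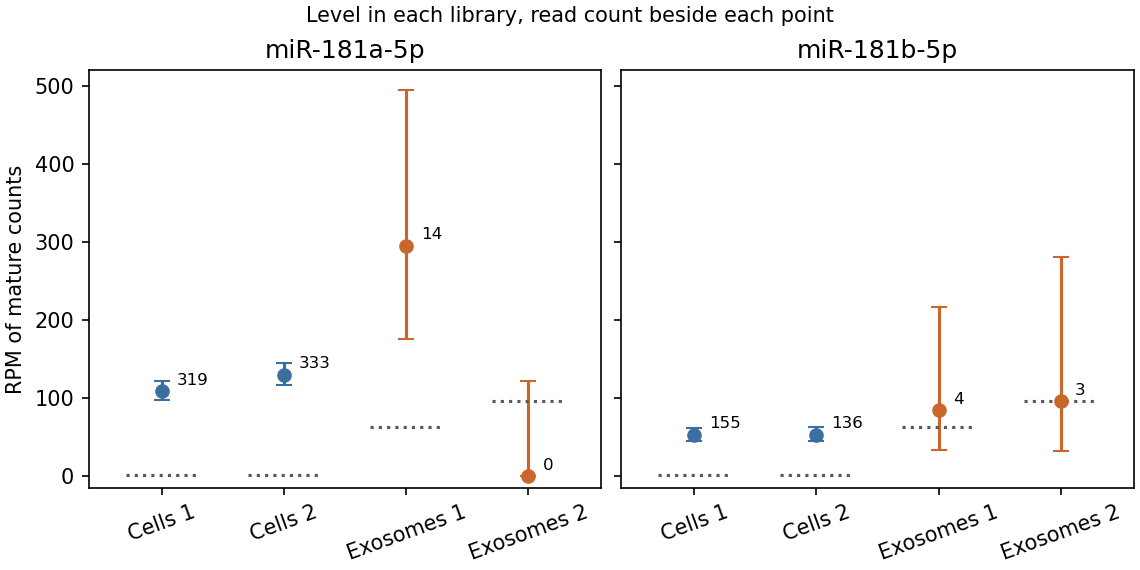
RPM (counts scaled to the sum of mature counts) of miR-181a-5p (left) and miR-181b-5p (right) in the 2 cell (blue) and 2 exosome (orange) libraries, with 95% Wilson intervals as bars, the read count beside each point and the floor of 3 counts as dotted lines. The cell values lie close together, whereas the exosome values rest on 14, 0, 4 and 3 counts and miR-181a-5p is at 295 RPM in one exosome library and at 0 counts in the other.

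Neither strand passed the test between exosomes and cells. For normalization by TMM, which scales each library by an effective size that discounts the most divergent miRNAs, values are given as normalized CPM, the count scaled to that size. miR-181a-5p was at 165 and 212 normalized CPM in the cells and at 165 and 0 in the exosomes, that is 189 ± 33.3 (SD, n = 2) against 82.5 ± 117 (SD, n = 2). Its log2 fold change, exosomes against cells, was -0.95 (standard error 1.00, 95% interval -3.66 to 1.76, Benjamini-Hochberg adjusted p = 0.447 in the quasi-likelihood test of the edgeR package). miR-181b-5p was at 80.2 and 86.7 normalized CPM in the cells and at 47.2 and 69.9 in the exosomes, that is 83.4 ± 4.54 (SD, n = 2) against 58.5 ± 16.1 (SD, n = 2). Its log2 fold change was -0.58 (standard error 0.43, 95% interval -1.75 to 0.60, adjusted p = 0.304 from the same test). Both intervals reach further below 0 than above it and include 0. These values are relative to the other miRNAs of a library, so less of a strand and more of the others cannot be told apart.

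The count of 0 of 2 tested members called by the quasi-likelihood test stands beside 438 tested miRNAs, of which 23.7% were called higher and 29.5% lower. At an unadjusted p under 0.05 the count was likewise 0 of 2, as it was with DESeq2 and with edgeR's exactTest at the threshold of the study (fold of at least 2, unadjusted p under 0.05), which called 27.4% of the tested miRNAs higher and 37.9% lower. Both strands lay near the middle of the tested miRNAs, whose median log2 fold change was -0.75. By normalized CPM the exosome libraries lay below the cell libraries for both strands, for miR-181a-5p by less than the rounding of the values above. Groups that did not overlap, in either direction, were found for 85.2% of the tested miRNAs.

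**Figure D2:**
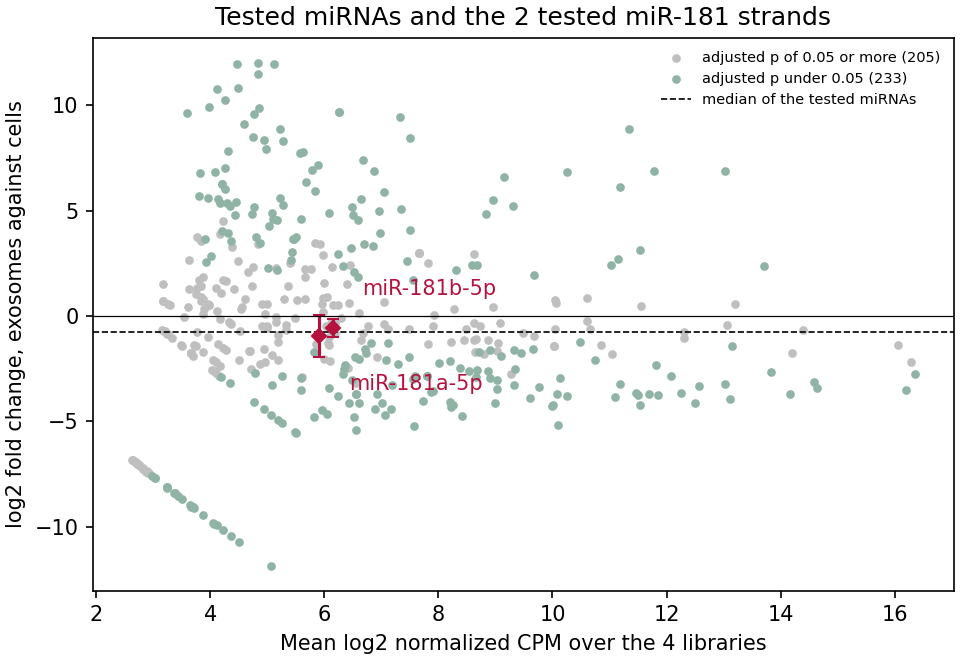
log2 fold change of exosomes against cells (y axis) against the mean log2 normalized CPM over the 4 libraries (x axis) for the 438 tested miRNAs, with the 2 tested miR-181 strands as red diamonds and their standard errors as bars. Both diamonds lie close to the dashed median of -0.75, between the miRNAs called higher and lower at an adjusted p under 0.05 (green).

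The direction of both strands depended on the scaling between libraries. With library size alone the log2 fold change was 0.45 for miR-181a-5p and 0.76 for miR-181b-5p, where edgeR gave adjusted p of 0.771 and 0.289. That scaling also moved the median of the tested miRNAs from -0.75 to 0.61, so that both strands stayed near the median under either. For miR-181a-5p the value also rested on which exosome library was used. Without exosome replicate 2 its log2 fold change was -0.09. Without exosome replicate 1 the remaining exosome count is 0. The strand entered that fit through its cell counts alone, so no test is read from it. By that fit's TMM scaling it was at least 2.09-fold lower against the floor, a log2 fold change of -1.06 or below. By RPM the mean of the cells, 119, stood closer to that library's floor of 95.5. The median of all tested miRNAs in that fit was -2.53. Without exosome replicate 1 miR-181b-5p had a log2 fold change of 0.11, which rests on the 3 counts of the other library.

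**Figure D3:**
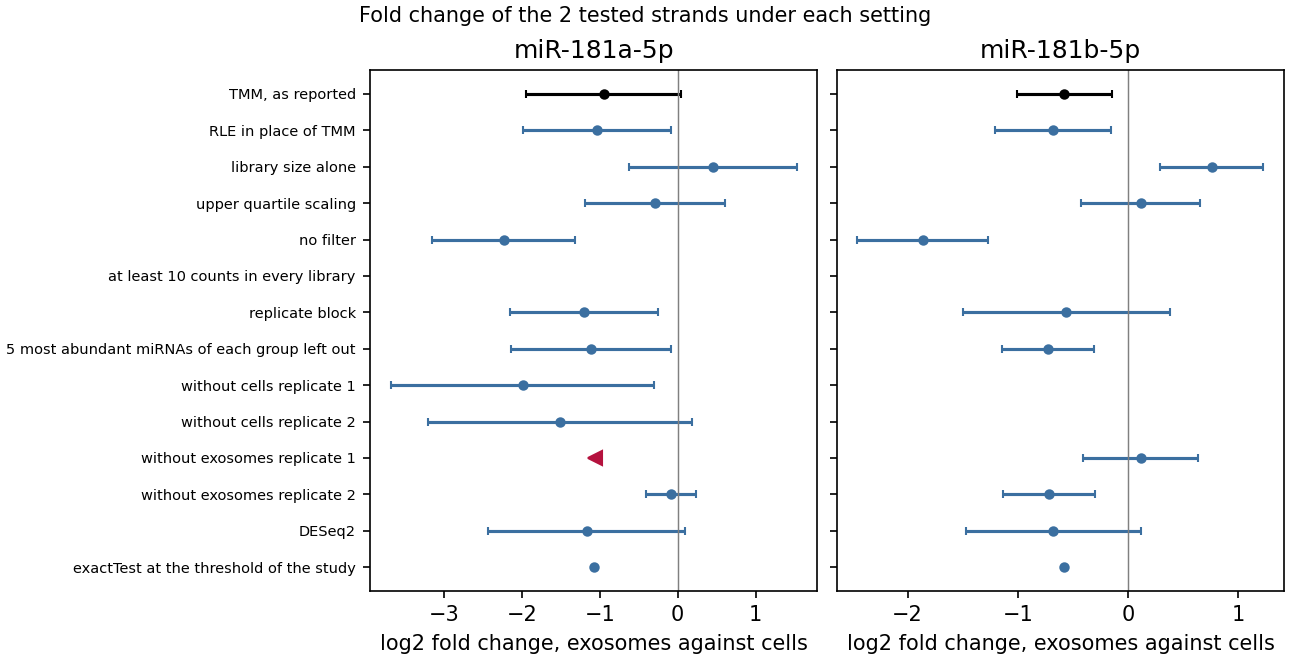
log2 fold change of miR-181a-5p (left) and miR-181b-5p (right), exosomes against cells, under the reported TMM fit (black) and each alternative setting (blue), with standard errors as bars where the tool gives them. The red arrowhead marks the upper bound of miR-181a-5p against the floor where its only exosome library had 0 counts, and a missing point means that the strand was not tested under that setting. The values lie on both sides of 0 for each strand.

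Within the family, which member was counted does not depend on scaling between libraries. miR-181a-5p held 66.2% of the member counts in cell replicate 1 (95% Wilson interval 61.8 to 70.3) and 69.4% in cell replicate 2 (65.1 to 73.3). miR-181b-5p held 32.2% (28.1 to 36.5) and 28.3% (24.5 to 32.5). In exosome replicate 1 these shares were 77.8% (54.8 to 91.0) and 22.2% (9.0 to 45.2) of 18 counts, and these intervals include the shares seen in the cells. In exosome replicate 2 all 3 member counts were miR-181b-5p. The floor of 3 counts is as large as that total, so it sets no limit on the share of miR-181a-5p there. Its Wilson interval, up to 56.1%, rests on these 3 reads and covers counting error only, so no difference from the cells is read from it. The 7 strands together made up 0.0164% and 0.0187% of a cell library's mature counts, and 0.0379% (0.0240 to 0.0600) and 0.00955% (0.00325 to 0.0281) of an exosome library's. The exosome libraries lay on either side of the cells, so the groups overlapped.

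The strands of the third pair of hairpins, on chromosome 8, were close to undetected. mmu-miR-181c-5p had 2 counts in each cell library and mmu-miR-181d-5p had 0 and 1, and neither had a count in the exosomes. miR-181c-3p had 0 counts in all 4 libraries, which allows up to 1.02 and 1.17 RPM in the cells. These strands were at or under the floor of 3 counts in every library, so no fold is given for them. In the deeper cell libraries miR-181c-5p held 0.415% and 0.417% of the member counts, far below the shares of miR-181a-5p and miR-181b-5p. In the exosomes the floor lies above the cell level of miR-181c-5p, 0.731 ± 0.0689 RPM (SD, n = 2), by a wide margin, so that a strand kept at its cell level was not detectable at this depth.

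The 3p strands, normally the passenger strands of this family, were rare, and among the 7 members the one counted was from the first pair, on chromosome 1. mmu-miR-181a-1-3p was counted 6 and 8 times in cells and 0 times in exosomes. This was 1.85% (95% Wilson interval 0.849 to 3.97) and 2.35% (1.19 to 4.56) of its counts together with those of miR-181a-5p. miR-181a-2-3p, from the second pair, had 0 counts beside 319 and 333 counts of miR-181a-5p, which allows a share of up to 0.940% and 0.901%. The remaining 3p strands of these hairpins are not among the 7. miR-181b-1-3p was counted 17 and 10 times in cells and 0 times in exosomes. In cells this was 9.88% (6.26 to 15.3) and 6.85% (3.76 to 12.1) of its counts together with those of miR-181b-5p. miR-181b-2-3p had 0 counts in all 4 libraries, which allows a share of up to 1.94% and 2.21% in the cells. For miR-181b-1-3p and miR-181b-2-3p, as for the 3p strands of mir-181a-1 and mir-181a-2, the strand of the first pair was therefore the one counted in both cell libraries. miR-181d-3p, from the third pair, was counted 0 and 2 times in cells, beside 0 and 1 counts of miR-181d-5p, and 0 times in exosomes. In the exosomes the 14 counts of miR-181a-5p allow a share of up to 21.4% for either 3p strand, so a strand share like that of the cells was not detectable there.

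The 5p reads themselves could be assigned to a pair only in small part. The hairpins mir-181a-1 and mir-181a-2 are identical for 27 bases from the start of the 5p strand, and all 319, 333 and 14 counts of miR-181a-5p were listed at both. mir-181b-1 and mir-181b-2 are identical for 24 bases from that start, and bases before it were not compared. The next bases, in capitals where they differ, are shown because reads that run into them can tell the hairpins apart.
mir-181b-1: aacauucauugcugucgguggguuGAaC
mir-181b-2: aacauucauugcugucgguggguuUGaA
For miR-181b-5p, 145 and 129 reads of the cell libraries were listed at mir-181b-1 and 155 and 135 at mir-181b-2, against 155 and 136 in the table of mature miRNAs. If a mature count holds each read once, 10 and 7 reads were listed at mir-181b-2 only, 0 and 1 at mir-181b-1 only, and 145 and 128 at both. That reading is possible where a mature count lies between the largest count at a hairpin and their sum, which held for each of the 65 and 62 miRNAs of several hairpins in cells and each of the 59 and 53 in exosomes. In exosome replicate 2, 1 of the 3 reads of miR-181b-5p was listed at mir-181b-1 only and 2 at mir-181b-2 only, whereas the 4 reads of exosome replicate 1 were listed at both. So the few 5p reads listed at a single hairpin in the cells fell mostly on mir-181b-2, while the 3p counts fell on mir-181b-1.

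Reads on the 6 hairpins were almost all on the annotated strands. Only 1 of the 964 reads listed at miR-181 hairpins in cell replicate 1, a total in which reads at both hairpins of a pair count at each, lay on neither strand, and 0 of 953, 36 and 3 did in the other libraries. Across all listed hairpins, 38.4% and 37.8% of those in cells and 52.4% and 51.6% of those in exosomes had at least 1 read off their strands. In cell replicate 1 this was so for mir-181a-2, 1 of the 5 listed miR-181 hairpins. In the other libraries it was so for 0 of 6, 4 and 2. The 3p strand of mir-181a-2 is the one that starts further upstream in RefSeq than in the files.

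The miRNAs most like miR-181a-5p over the 4 libraries were those with the same uneven exosome libraries. By the distance between log2 normalized CPM values centred on each miRNA's mean, the nearest of 436 tested miRNAs outside the family was miR-29c-5p at 0.92, followed by miR-3535 at 0.92, miR-106b-5p at 0.96, miR-29b-2-5p at 1.13 and miR-27a-3p at 1.25. Each had 0 counts in exosome replicate 2, with between 4 (miR-27a-3p) and 9 (miR-29c-5p) in exosome replicate 1. miR-181b-5p lay at 5.55 from miR-181a-5p, farther than the median of 5.10. That distance rests largely on exosome replicate 2, where miR-181a-5p had 0 counts and miR-181b-5p had 3, at the floor. A count of 0 in 1 of the 2 exosome libraries only was found for 94 of the 438 tested miRNAs, against 7 for the cells.

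Since miR-181 is also known from lymphocytes, a list of 8 blood-cell miRNAs was read beside it. Most of these miRNAs were so rare in the cells that they could enter the test only through their exosome counts, so their levels are given without a test. miR-142a-3p, miR-155-5p, miR-451a and miR-144-3p had 0 counts in both cell libraries. In exosome replicates 1 and 2, miR-142a-3p had 14 and 1 counts, miR-451a 33 and 2, and miR-144-3p 4 and 0. miR-155-5p had 0 counts in the exosomes as well. miR-142a-5p had 0 and 1 counts in cells against 49 and 8 in exosomes. The summed level of the list was 683 and 600 RPM in the cells, nearly all of it miR-146a-5p (1996 and 1534 counts), and 4911 and 1878 RPM in the exosomes. miR-150-5p, a miRNA of mature lymphocytes, was counted 4 and 4 times in cells against 48 and 22 times in exosomes. miR-223-3p, a myeloid miRNA, was counted 1 and 0 times in cells against 17 and 12 times in exosomes. miR-146a-5p, the most abundant of the list in the cells, was counted 68 and 14 times in exosomes, with a log2 fold change of -0.81 (edgeR adjusted p = 0.252). The part of these miRNAs in the exosome counts of miR-181a-5p and miR-181b-5p was not tested.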

How the data were processed

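Small RNA of MIN6 cells and MIN6-derived exosomes was sequenced with the SMARTer smRNA-Seq kit, which adds a poly(A) tail to each RNA. Libraries of the 2 groups were checked on different instruments, so instrument and group cannot be told apart. The authors trimmed adapters, removed rRNA reads and aligned what remained first to the genome, then to miRBase v21 and RNAcentral v10.0. The deposited values are read counts per mature miRNA and RPM, which the authors scaled to the sum of mature counts of each library. The deposited per-sample tables hold read counts per hairpin and strand. The role of each aligner is not given in the sources used here.

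Of 1101 miRNAs with a count, 438 passed filterByExpr (minimum count 10) and entered the exosome against cell comparison, a quasi-likelihood test in edgeR 4.0.16 on TMM-scaled counts, adjusted by Benjamini-Hochberg over all 438. Standard errors are the absolute log2 fold change divided by the root of F. The procedure was also run on simulated counts with the same spread in both groups, whereas the exosome libraries here varied more than the cells. A fold against libraries at or under 3 counts was computed against that floor. Other software was DESeq2 1.42.0 in R 4.3.3, and scipy 1.17.1 and matplotlib 3.10.9 in Python 3.11.15.

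Replicate libraries differed by more than counting error (chi-square over its degrees of freedom 19.5 for cells and 58.2 for exosomes), and each was counted as 1 sample. Named were the members, the other strands of their hairpins, 2 marker lists and the 5 tested miRNAs nearest to miR-181a-5p. Members were taken by name, and the family and the lists were chosen with earlier results of these data known. Alternatives were other scalings, filters and tests, a replicate block, the removal of the 5 most abundant miRNAs of each group, and each library left out.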

Additional observations from a re-analysis of the deposited data

How the results depend on the processing

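miR-181a-5p kept a negative log2 fold change under 11 of 12 alternatives and miR-181b-5p under 7 of 10. The exceptions were library size alone (0.45 and 0.76) and, for miR-181b-5p, upper quartile scaling (0.11) and the fit without exosome replicate 1 (0.11, against -0.72 without exosome replicate 2). With both libraries of each group kept, adjusted p ranged from 0.120 to 0.811 for miR-181a-5p and from 0.0502 to 0.920 for miR-181b-5p. These are from the quasi-likelihood test, or from DESeq2 or exactTest where these replaced it. With no filter 5 members were tested, 0 passed the adjusted threshold and 2 had an unadjusted p under 0.05, at log2 fold changes of -2.23 (miR-181a-5p) and -1.86 (miR-181b-5p), beside 136 higher and 256 lower of all 1101 at that p, and the median of all tested fell to -1.67. With at least 10 counts in every library 0 members could be tested.

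Over all tested miRNAs, 104 were higher and 129 lower. Library size alone gave 137 and 30, no filter 202 lower, at least 10 counts in every library 37 and 40, upper quartile scaling 129 and 95, and exactTest 120 and 166. Leaving out 1 library gave 46 to 115 higher, 56 to 162 lower, 1 to 2 members tested and 0 to 1 members lower, the 1 being miR-181a-5p without exosome replicate 1. With 1 library left in a group, it is assumed to vary like the other group. Without the most abundant miRNAs in the denominator the members took 0.0400% in cells and 0.0517% in exosomes, against 0.0176% and 0.0237%. Leaving out 1 library gave 0.0164% to 0.0187% in cells and 0.00955% to 0.0379% in exosomes.

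With the replicate number as a block, 117 miRNAs were higher and 109 lower, 0 members were called, and the log2 fold changes were -1.20 and -0.56. Libraries with the same number share only that number, and their deviations from the group means had a Pearson correlation of 0.19 across 438 miRNAs. Causes of these shifts were not tested. On the RPM scale the exosome floors of 63.2 and 95.5 lie above the cell level of every member but miR-181a-5p. On normalized CPM the floors were 35.4 and 69.9, below the cell means of miR-181a-5p (189) and miR-181b-5p (83.4).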
